A study of Homo sapiens with 12 samples.

Results

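Thrombomodulin and 8 other regulators of blood clotting and clot removal were followed by name through the count tables: THBD, PROCR, TFPI, TFPI2, ANXA5, F3, PLAT, PLAU and SERPINE2, 9 of the 60645 gene names counted. THBD was chosen by its measured rise with EWS-FLI1 in these libraries, so that rise is described without a test. The other 8 were taken as its companions in the same pathway. All 9 passed the filter on low counts.

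PolyA RNA had been sequenced from HEK-293T, a line derived from human embryonic kidney, after knockout of its ARID1A gene (a line the submitters call 12KO). ARID1A belongs to the SWI/SNF complex, which moves nucleosomes, and EWS-FLI1 is the fusion transcription factor of most Ewing sarcomas, which keeps the ETS-type DNA-binding domain of FLI1. The knockout cells carried an empty vector (no ARID1A), wild-type ARID1A (WT) or ARID1A without its disordered segment IDR1b (ΔIDR1b), and on top either EWS-FLI1 or a further empty vector, which made 6 groups of 2 libraries. The study asked what IDR1b does in gene regulation by EWS-FLI1. All 6 groups shared the knockout, and ARID1A and EWS-FLI1 were overexpressed, not native. The protocol gives 2 µg of EWS-FLI1 plasmid and 48 h of growth after transfection, and nothing in the labels says whether the 2 repeats came from separate cultures, so p-values measure only the spread between these libraries.

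Clotting starts when tissue factor, the product of F3, meets clotting factors of the blood, which leads to thrombin. Thrombomodulin is a membrane protein of endothelium that binds thrombin and turns it towards activation of protein C, which the receptor encoded by PROCR presents. TFPI blocks the tissue factor complex, and clots are later dissolved by plasmin, which the activators tPA (PLAT) and uPA (PLAU) release from plasminogen.

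Library totals ran from 11702251 to 14445379 counts. Values are given as CPM, counts scaled to a common library size with TMM factors, and 3 counts, the limit that a count of 0 allows, stood at 0.208 to 0.256 CPM. Intervals and this limit cover counting error only. FLI1 stood at 0 to 0.146 CPM in the 6 libraries without EWS-FLI1 and at 1688 to 3675 CPM in the 6 with it. ARID1A read 147 to 165 CPM in the knockout cells with no ARID1A and 1843 to 2878 CPM in the others. Of 8 markers of the embryonic kidney line 6 were tested, with a summed level of 543 to 827 CPM. Endothelial markers summed to 0.691 to 5.84 CPM, with EMCN at 0 in all libraries, and platelet markers to 21.8 to 41.1 CPM, from ITGA2B (18.4 to 32.8 CPM) and GP1BA (3.34 to 9.43 CPM), with PF4, PPBP and GP9 at 0. Hepatocyte markers summed to 0.366 to 1.59 CPM and leukocyte markers to 0.372 to 3.02 CPM.

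Promoter sequence of the first 250 bases before the start site was matched for 7 of the 9 genes in RefSeq (GRCh38.p14), THBD and PLAT being without an entry. TFPI and ANXA5 are shown because they differed in opposite directions between ΔIDR1b and WT, as described further on. Capitals mark GGAA, the core of sites for ETS factors, or TTCC, the same core on the other strand. Sequences run 5′ to 3′ on the strand of the gene.
TFPI, chr2:187554436-187554685, minus strand: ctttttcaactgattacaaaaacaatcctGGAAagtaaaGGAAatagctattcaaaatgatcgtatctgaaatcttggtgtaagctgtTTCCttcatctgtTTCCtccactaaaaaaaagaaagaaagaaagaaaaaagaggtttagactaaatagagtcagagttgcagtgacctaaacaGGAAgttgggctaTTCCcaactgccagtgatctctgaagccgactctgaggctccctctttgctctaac
ANXA5, chr4:121696981-121697230, minus strand: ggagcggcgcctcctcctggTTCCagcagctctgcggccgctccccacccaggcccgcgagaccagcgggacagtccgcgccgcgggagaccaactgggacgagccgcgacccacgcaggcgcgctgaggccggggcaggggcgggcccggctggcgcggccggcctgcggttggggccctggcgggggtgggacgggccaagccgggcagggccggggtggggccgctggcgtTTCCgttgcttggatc

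The TFPI window held 6 such cores and that of ANXA5 held 2, against a median of 3 in 35116 promoter windows of the same length, 92.7% of which held at least 1. PROCR had the most among the 7 genes, with 8. GGAAGGAA, a pair of adjacent cores as found in the repeats that EWS-FLI1 binds, was in 3.1% of the windows and in none of these 7 genes. TGANTCA, the AP-1 site, was in 6.6% of the windows, with 2 matches for F3 and 1 for TFPI2. Both strands were searched, and GGAA matches include those inside GGAAGGAA.

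THBD (ENSG00000178726.7; GRCh38, chromosome 20, 23045633 to 23049672, minus strand) was almost silent in the knockout cells with the empty vector, at 0.0743 and 0.0748 CPM, which was 1 count in each library. It stood at 0.852 and 2.07 CPM with EWS-FLI1 in the same cells. In WT cells it read 1.12 and 0.598 CPM with the empty vector and 11.1 and 11.7 CPM with EWS-FLI1. In ΔIDR1b cells the levels were 0.731 and 0.858 CPM against 6.72 and 5.98 CPM. Within each ARID1A state both libraries with EWS-FLI1 lay above both with the empty vector, and the highest 4 of the 12 libraries were those with both a form of ARID1A and EWS-FLI1. Its exons share no bases with those of another gene in the annotation.

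**Figure D1:**
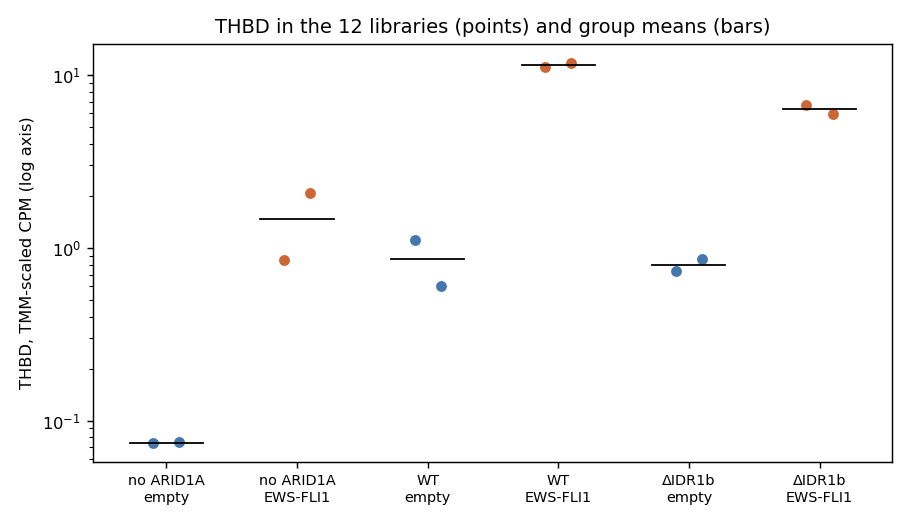
THBD level in CPM on a log axis for the 12 libraries (points) in 6 groups, with group means as bars, blue for empty vector and orange for EWS-FLI1. WT with EWS-FLI1 sits highest, at 11.1 and 11.7 CPM, and the knockout cells with the empty vector lowest, at 0.0743 and 0.0748 CPM.

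The ratio of THBD counts with EWS-FLI1 to those without, after library scaling, was 19.6 with no ARID1A (34 against 2 counts, 95% exact interval 5.02 to 168). In WT it was 13.3 (302 against 23 counts, 8.70 to 21.3) and in ΔIDR1b 7.98 (181 against 22 counts, 5.11 to 13.1). The 3 intervals overlap, and the widest belongs to the state with the fewest counts. On the additive scale the rise was 1.39 CPM with no ARID1A, 10.6 CPM in WT and 5.56 CPM in ΔIDR1b. The order of the states by ratio was therefore not their order by amount. The fitted log2 fold changes were 4.13 (SE 0.74), 3.72 (SE 0.39) and 2.98 (SE 0.40) in the same order, and 3.61 (SE 0.29) averaged over the states.

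Whether the size of the fold change depended on ARID1A was tested as an interaction, with libraries that include those on which THBD was chosen. The EWS-FLI1 effect in WT minus that with no ARID1A was -0.41 on the log2 scale (SE 0.82), that in ΔIDR1b minus no ARID1A -1.15 (SE 0.95), and that in ΔIDR1b minus WT -0.74 (SE 0.60). None passed, with adjusted p = 1.00 by edgeR for each, and the standard errors leave room for differences larger than 1 log2 unit. Of all 20377 genes tested, 0.0245%, 0.0196% and 0% were called in these interactions, and 0 of the 9 clotting genes in any of them. At an unadjusted p under 0.05 there were 0, 1 and 0 of the 9, the 1 being PLAU, beside 884, 702 and 741 of the 20377 genes. DESeq2 called 0 of the 9 in each.

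Without EWS-FLI1, THBD counts were higher with either form of ARID1A. Its count ratio was 11.5 for WT over no ARID1A (23 against 2 counts, 95% exact interval 2.84 to 101) and 10.7 for ΔIDR1b over no ARID1A (22 against 2 counts, 2.62 to 93.6). The libraries did not overlap. Both ratios are a description, since the empty-vector libraries took part in the rise by which THBD was chosen, and for WT against no ARID1A the gene passed the filter on low counts only through the libraries with EWS-FLI1. The log2 difference of ΔIDR1b from WT was -0.11 (SE 0.50, adjusted p = 0.908). The knockout side of both ratios rests on 2 counts.

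With EWS-FLI1 present, THBD was higher in WT than with no ARID1A, with a log2 difference of 2.96 (SE 0.37, adjusted p = 4.54e-07), a count ratio of 7.82 (95% exact interval 5.47 to 11.5). In ΔIDR1b it was higher than with no ARID1A by 2.11 (SE 0.37, adjusted p = 3.51e-05), a ratio of 4.35 (3.0 to 6.48). ΔIDR1b lay below WT by -0.84 (SE 0.31), with WT over ΔIDR1b at a count ratio of 1.80 (1.49 to 2.17) and no overlap between the libraries. That difference just missed the threshold (adjusted p = 0.0523). It was called when the repeat number within each vector was a block (adjusted p = 0.0365) and in 10 of 21 alternative fits in all. The libraries with EWS-FLI1 here are the ones that showed the rise for which THBD was taken, so these p-values are not independent of that choice.

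The amount of EWS-FLI1 differed between these groups. In the knockout cells FLI1 read 1830 and 1688 CPM. The WT libraries had 3675 and 3462 CPM, and the ΔIDR1b libraries 1888 and 1906 CPM. WT over ΔIDR1b gave a ratio of 1.88 for FLI1 beside 1.80 for THBD, with ARID1A at 0.79. ΔIDR1b over no ARID1A gave 1.08 for FLI1 beside 4.34 for THBD, and WT over no ARID1A gave 2.03 beside 7.80, both as ratios of mean CPM. The part of FLI1 level in the THBD differences was not tested.

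Of 8 endothelial markers 2 were tested, KDR and CLDN5. Among the libraries with EWS-FLI1, all 8 summed to 0.691 to 1.53 CPM with no ARID1A, 2.20 to 3.01 CPM in WT and 4.53 to 5.84 CPM in ΔIDR1b. With the empty vector it was 0.966 to 3.37 CPM, 1.57 to 1.79 CPM and 4.0 to 4.61 CPM. In ΔIDR1b most of the sum came from CLDN5 (group means 2.57 and 2.52 CPM without and with EWS-FLI1) and KDR (1.45 and 1.65 CPM). PECAM1, CDH5 and ERG had group means of 0.224 CPM or less in every group, EMCN was at 0, and TEK and TIE1 reached at most 0.527 and 0.667 CPM. The sum was highest in ΔIDR1b and THBD in WT, and the part of cells with these markers in the THBD values was not tested. In bulk RNA, more cells expressing a gene and more RNA per cell cannot be told apart.

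As level per kilobase of exon (CPM divided by exonic length), which allows genes to be compared, ANXA5 had the highest mean of the 9 at 73.9, followed by PROCR at 20.4, PLAT at 4.93, SERPINE2 at 2.91, TFPI2 at 2.52, TFPI at 1.91, PLAU at 1.66, F3 at 1.07 and THBD at 0.864. ANXA5 and PROCR kept ranks 1 and 2 in every group. THBD was the lowest of the 9 in 4 groups, rose to rank 5 in WT with EWS-FLI1 (2.82) and stood at rank 8 in ΔIDR1b with EWS-FLI1 (1.57). Its highest group mean was 153 times its lowest, while for the other 8 this span ran from 1.33 for PROCR to 2.00 for TFPI. The lowest THBD mean rests on 1 count in each library, below the limit of 3 counts, so its span is poorly known. THBD was also chosen for its rise in these libraries, so its wider span is a description.

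The 8 companions of THBD showed no called change with EWS-FLI1. The call rate was 0 of 8 with no ARID1A, in WT, in ΔIDR1b and in the average, where 0.0442%, 0.221%, 0.172% and 0.466% of all genes tested were called. At such shares no call among 8 genes says nothing about them as a group. At an unadjusted p under 0.05 there were 0, 0, 1 and 2 of the 8, beside 643, 1331, 1110 and 1610 of all 20377 genes tested. DESeq2 also called 0 of the 8. Their median log2 fold change was -0.03, -0.04, -0.01 and -0.01, beside 0.00 over all genes in each of these contrasts.

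**Figure D2:**
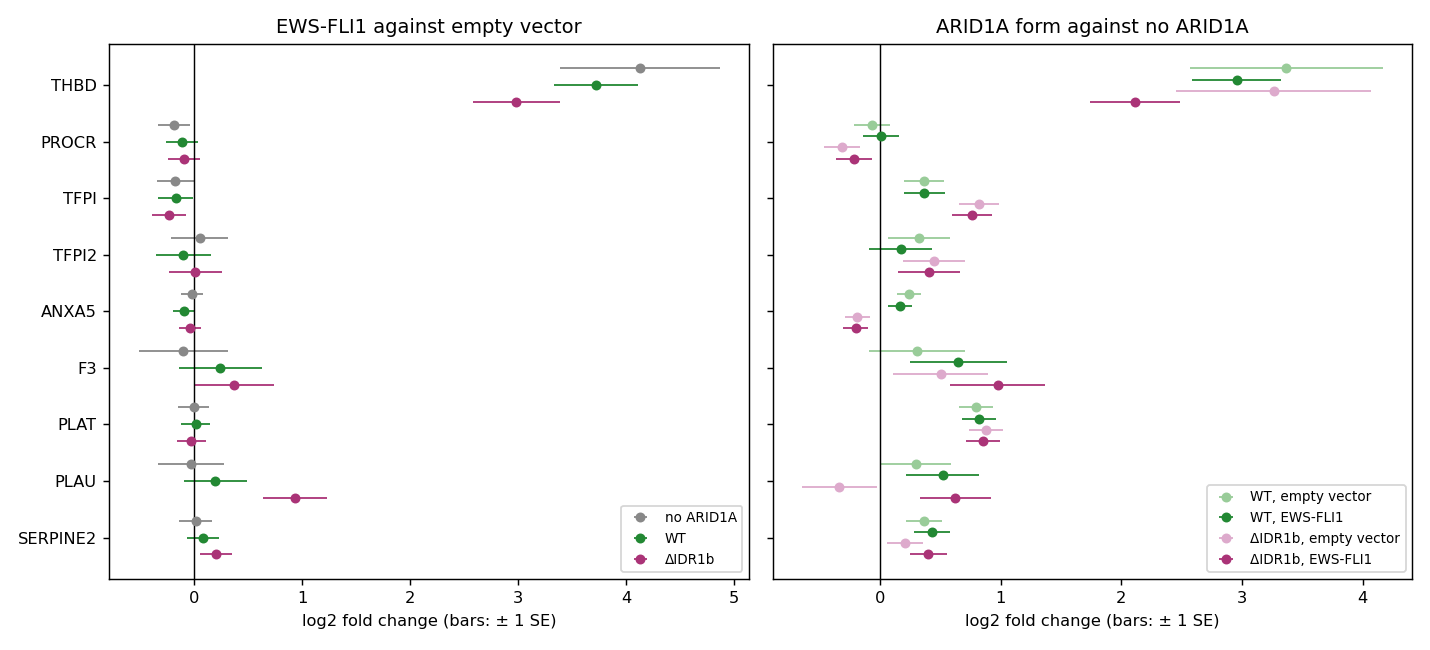
Log2 fold changes with bars of 1 SE for the 9 genes, EWS-FLI1 against empty vector in the 3 ARID1A states on the left and each form of ARID1A against no ARID1A on the right. On the left THBD sits at 2.98 to 4.13 and every other gene between -0.24 and 0.93; on the right PLAT sits at 0.80 to 0.88 in all 4 contrasts.

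Among the anticoagulant genes, TFPI (chromosome 2, 187464230 to 187565760), the tissue factor pathway inhibitor, was highest in ΔIDR1b. Under the empty vector the knockout libraries had 18.5 and 17.0 CPM, those of WT 23.6 and 22.0 CPM and those of ΔIDR1b 28.5 and 34.2 CPM. With EWS-FLI1 it read 16.4 and 14.9 CPM, 23.0 and 17.4 CPM, and 28.2 and 24.9 CPM. The libraries of the 3 states did not overlap under either vector.

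The log2 difference of TFPI between ΔIDR1b and no ARID1A was 0.82 under the empty vector (SE 0.16, adjusted p = 1.68e-04) and 0.76 with EWS-FLI1 (SE 0.17, adjusted p = 4.92e-04). Against WT the difference was 0.46 under the empty vector (SE 0.16, adjusted p = 0.0328) and 0.39 with EWS-FLI1 (SE 0.16, adjusted p = 0.084). The former call was lost without a filter on low counts (0.0564), without either WT library (0.101 and 0.17) and without repeat 2 of ΔIDR1b (0.323). The latter was gained with the repeat number within each vector as a block (adjusted p = 0.0373) and without repeat 1 of WT with EWS-FLI1 (0.0205). WT exceeded no ARID1A by 0.36 and 0.37 (SE 0.16 and 0.17), which did not pass (adjusted p = 0.156 and 0.135). On the opposite strand 1.01% of its exonic bases overlap CALCRL-AS1, and the counting set no strand option.

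TFPI2 (chromosome 7, 93885396 to 93890753), a related inhibitor of plasmin and other serine proteases, stayed between 4.26 and 7.43 CPM in all 12 libraries. Its log2 difference of ΔIDR1b from no ARID1A was 0.45 under the empty vector (SE 0.25, adjusted p = 0.183) and 0.41 with EWS-FLI1 (SE 0.26, adjusted p = 0.226). In both, the ΔIDR1b libraries lay above those with no ARID1A without overlap, but neither difference passed the test. Across the 12 libraries TFPI2 and TFPI had a Pearson r of 0.85 in log2 CPM. TFPI2 and PLAT had 0.83, and TFPI and PLAT 0.80. These are descriptions over libraries that share groups and scaling.

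PROCR (chromosome 20, 35172072 to 35216240), the endothelial protein C receptor and partner of thrombomodulin in protein C activation, ran from 27.0 to 44.3 CPM. It was not called in any contrast. The knockout cells with the empty vector had 34.6 and 44.3 CPM and the ΔIDR1b cells 28.9 and 34.6 CPM, a log2 difference of -0.31 (SE 0.15, adjusted p = 0.101). Its EWS-FLI1 differences were -0.19, -0.12 and -0.10 with no ARID1A, in WT and in ΔIDR1b. Of its exonic bases 12.85% overlap ENSG00000278367 on the other strand, a gene with 20 counts over the 12 libraries.

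ANXA5 (chromosome 4, 121667946 to 121696995) encodes annexin A5, which covers the phosphatidylserine on membranes where clotting factors assemble. It was lower in ΔIDR1b than in WT under both vectors. With the empty vector it read 257 and 253 CPM in WT and 186 and 194 CPM in ΔIDR1b, a log2 difference of -0.43 (SE 0.10, adjusted p = 0.00200). With EWS-FLI1 it read 259 and 219 CPM against 176 and 194 CPM, a difference of -0.37 (SE 0.10, adjusted p = 0.00943). The knockout cells lay between, at 226 and 206 CPM with the empty vector and 213 and 212 CPM with EWS-FLI1, and neither form differed from them in the test. The call with EWS-FLI1 was lost with only the libraries compared in the fit (adjusted p = 0.109), without repeat 1 of WT (0.0974) and without repeat 1 of ΔIDR1b (0.136).

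**Figure D3:**
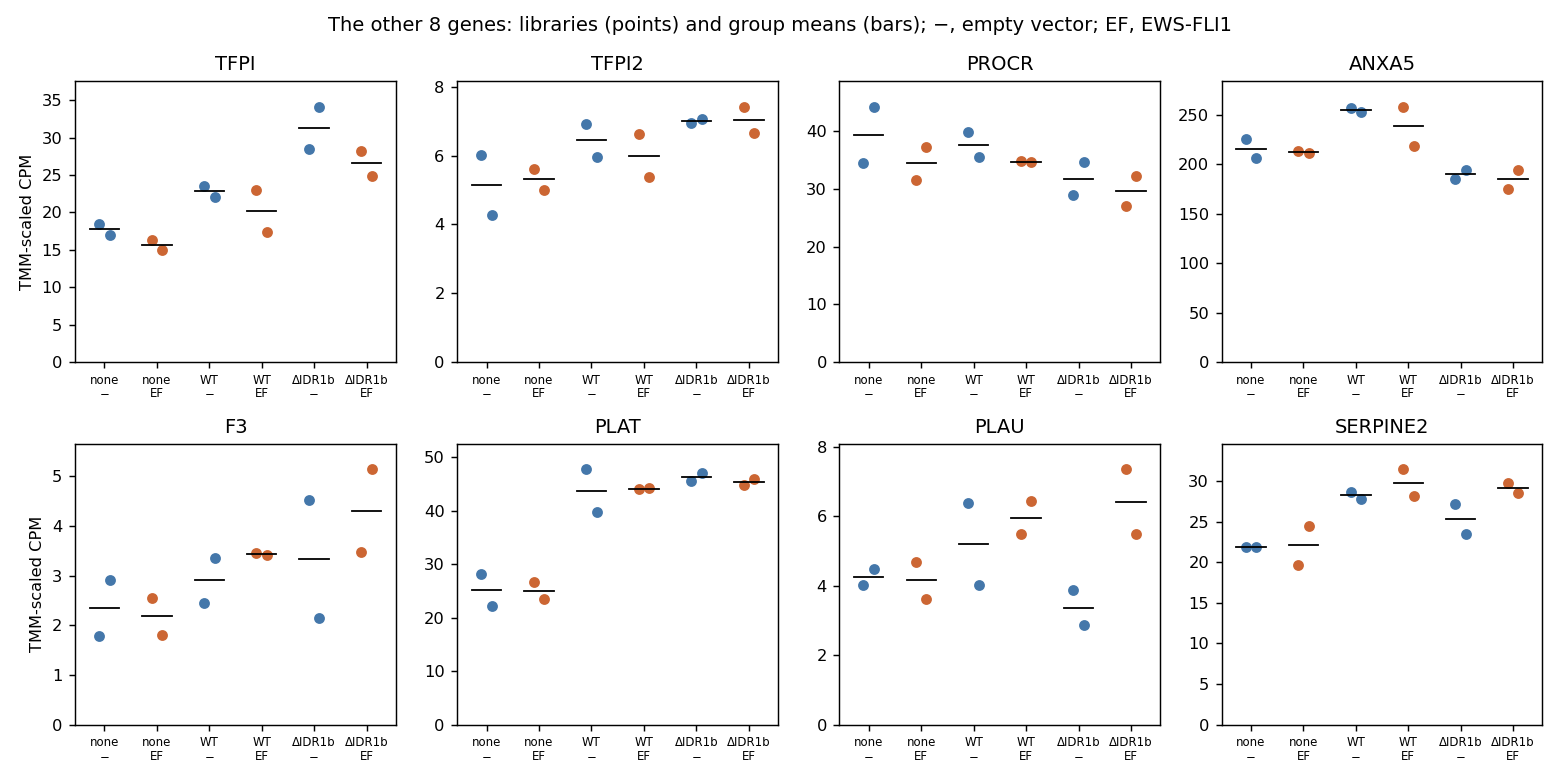
Level in CPM of the other 8 genes in the 12 libraries (points), with group means as bars and axes that start at 0, blue for empty vector and orange for EWS-FLI1. PLAT is higher with either form of ARID1A, TFPI is highest and ANXA5 lowest in ΔIDR1b, and the 2 colours lie close together for most genes.

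On the procoagulant side, F3 (chromosome 1, 94529173 to 94541759), tissue factor, was expressed at 1.78 to 5.14 CPM. With EWS-FLI1 it read 2.56 and 1.81 CPM with no ARID1A, 3.46 and 3.41 CPM in WT and 3.47 and 5.14 CPM in ΔIDR1b. The log2 difference of ΔIDR1b from no ARID1A was 0.97 (SE 0.39), with libraries that did not overlap and an adjusted p of 0.0506. With the repeat number within each vector as a block that p was 0.0371, and it was under the threshold in 10 of 21 alternative fits. With the empty vector the same difference was 0.50 (SE 0.39, adjusted p = 0.345), and the ΔIDR1b libraries, at 4.53 and 2.14 CPM, differed from each other more than the groups did. The change with EWS-FLI1 within a state was -0.10 to 0.37.

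PLAT (chromosome 8, 42174718 to 42207709), tissue plasminogen activator, was higher with either form of ARID1A. It read 28.1 and 22.2 CPM in the knockout cells with the empty vector, 47.8 and 39.7 CPM in WT and 45.5 and 47.1 CPM in ΔIDR1b. With EWS-FLI1 it read 26.7 and 23.4 CPM, 44.1 and 44.2 CPM, and 44.8 and 45.9 CPM. Every library with either form of ARID1A exceeded every library without.

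For WT against no ARID1A the log2 difference of PLAT was 0.80 under the empty vector (SE 0.14, adjusted p = 1.85e-04) and 0.82 with EWS-FLI1 (SE 0.14, adjusted p = 8.06e-05). For ΔIDR1b it was 0.88 (SE 0.14, adjusted p = 7.21e-06) and 0.86 (SE 0.14, adjusted p = 1.16e-05). Between ΔIDR1b and WT it differed by 0.08 (SE 0.13) and 0.04 (SE 0.13), and its EWS-FLI1 differences were -0.01, 0.01 and -0.03. These 4 calls against no ARID1A held in 20 of 21 alternative fits, the exception being a fold limit of 1 log2 unit, which none of them reaches.

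PLAU (chromosome 10, 73909177 to 73917496), urokinase, was low, at 2.86 to 7.36 CPM. In ΔIDR1b it read 3.87 and 2.86 CPM with the empty vector and 7.36 and 5.49 CPM with EWS-FLI1, which did not overlap. This log2 difference of 0.93 (SE 0.30) was the highest of any of the 8 companions with EWS-FLI1, and it did not pass (adjusted p = 0.478). In WT the libraries of both vectors overlapped, at 6.40 and 4.03 CPM against 5.49 and 6.44 CPM. Of the exonic bases of PLAU 31.03% overlap C10orf55 on the other strand, a gene with 27 counts over the 12 libraries.

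SERPINE2 (chromosome 2, 223975045 to 224039318), protease nexin 1, an inhibitor of thrombin and of both plasminogen activators, was higher with ARID1A in the presence of EWS-FLI1. It read 19.7 and 24.5 CPM with no ARID1A, 31.5 and 28.1 CPM in WT and 29.8 and 28.5 CPM in ΔIDR1b. The differences from no ARID1A were 0.43 for WT (SE 0.15, adjusted p = 0.0425) and 0.40 for ΔIDR1b (SE 0.15, adjusted p = 0.0360). Both calls sat close to the threshold: the former was lost in 12 of 21 alternative fits and the latter in 6. Without repeat 1 of the knockout cells with EWS-FLI1 they gave adjusted p = 0.405 and 0.374. With the empty vector the same differences were 0.37 and 0.21 and did not pass.

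Counted together, WT against no ARID1A called 2 of the 9 genes with the empty vector (THBD and PLAT, and PLAT alone when only the libraries compared were fitted, since THBD then fell below the filter), where 11.7% of all genes tested were called (6.5% higher and 5.19% lower). With EWS-FLI1 it called 3 (THBD, PLAT and SERPINE2), with 18.1% of all genes (9.72% higher and 8.36% lower). ΔIDR1b against no ARID1A called 3 with the empty vector (THBD, TFPI and PLAT), with 33.3% of all genes (16.4% higher and 16.8% lower), and 4 with EWS-FLI1 (the same 3 genes and SERPINE2), with 35.9% (18.1% higher and 17.9% lower). Every one of these calls was a rise. THBD stands in these counts although its choice used the same libraries. The 2 forms were compared with the same knockout libraries, so their counts are not independent. ΔIDR1b against WT called 2 with the empty vector, TFPI higher and ANXA5 lower, and 1 with EWS-FLI1, ANXA5 lower, where 24.5% of all genes (11.1% higher and 13.4% lower) and 18.6% (8.48% higher and 10.1% lower) were called. The counts between the forms lie near the shares of all genes. Those against no ARID1A include THBD for both forms. Without it the WT counts hold PLAT alone with the empty vector, and PLAT and SERPINE2 with EWS-FLI1. Those for ΔIDR1b then hold TFPI and PLAT with the empty vector, and SERPINE2 as well with EWS-FLI1. Without THBD all lie near the shares called in either direction and above the shares called higher. With so few genes these distances were not tested.

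The median log2 difference of the 9 genes was 0.33 for WT against no ARID1A under the empty vector and 0.43 with EWS-FLI1, beside -0.01 and -0.02 over all genes tested. For ΔIDR1b against no ARID1A it was 0.45 and 0.63, beside 0.00 and 0.02, and for ΔIDR1b against WT -0.11 and 0.04, beside 0.01 and 0.01. THBD, chosen on these same libraries, is among the 9 genes, and the medians are a description without a test.

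The genes with the pattern most like THBD over the 12 libraries, by Pearson r of log2 CPM among 16690 genes, were ETV3 (0.94), RND1 (0.94), DUSP6 (0.94), EPHB3 (0.94) and KLF2 (0.93). ETV3 is an ETS-family repressor, RND1 a small GTP-binding protein, DUSP6 a phosphatase of ERK and EPHB3 an ephrin receptor. RND1 ran from 4.02 CPM (group mean) in the knockout cells with the empty vector to 22.3 CPM in WT with EWS-FLI1 and 14.6 CPM in ΔIDR1b with EWS-FLI1. DUSP6 was scarce, at 0.112 CPM against 2.68 and 2.92 CPM in the same groups. ETV3 moved over a narrower span, from 56.0 to 88.7 and 82.6 CPM. No clotting gene was among these 5, and the highest r of THBD with another of the 9 was 0.71, for SERPINE2.

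KLF2, an endothelial transcription factor known to activate THBD, was on a list of 6 factors known to act on THBD, with KLF4, KLF6, NFE2L2, HIF1A and HSF1. It read 9.81 and 8.75 CPM in the knockout cells with the empty vector and 18.7 and 23.9 CPM with EWS-FLI1, a log2 rise of 1.20 (SE 0.20, adjusted p = 0.00246). In WT it went from 14.0 and 11.9 to 34.0 and 48.6 CPM, a rise of 1.67 (SE 0.18, adjusted p = 3.40e-07). In ΔIDR1b it had 16.4 and 12.1 against 23.9 and 23.1 CPM, a difference of 0.72 (SE 0.19) that did not pass (adjusted p = 0.154). KLF2 was also lower in ΔIDR1b than in WT with EWS-FLI1, by -0.81 (SE 0.18, adjusted p = 0.00123). No other gene of the list was called with EWS-FLI1 within a state, and KLF4, named here after its values were seen since its libraries overlap, was lower in the average over states, by -0.35 (SE 0.08, adjusted p = 0.032). KLF4 and KLF6 were lower in ΔIDR1b than in WT, by -0.82 and -0.70 with the empty vector (adjusted p = 5.30e-05 and 6.49e-06) and by -0.97 and -0.67 with EWS-FLI1. HSF1 was lower in ΔIDR1b than in WT by -0.32 under the empty vector (adjusted p = 0.0458). Against no ARID1A under the empty vector, ΔIDR1b had KLF2 higher by 0.61 (adjusted p = 0.0166), and KLF4, KLF6 and NFE2L2 lower, by -0.81, -0.72 and -0.33.

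Of 57 further genes of the clotting pathway 33 passed the filter. The 57 were listed as clotting factors, plasma anticoagulants, fibrinolysis genes, thrombin receptors and their relatives, factors of protein processing and genes of phosphatidylserine exposure. In the contrasts of EWS-FLI1 against empty vector 0 of 33 were called, where 0.0442% to 0.466% of all genes were, a share at which no call among 33 genes says nothing about the list. Most genes listed as clotting factors were not expressed at a testable level: 3 of 16 passed the filter, and none was called in any contrast. Between ARID1A states the calls among the 33 were 5 for WT against no ARID1A under the empty vector (4 higher, 1 lower) and 10 with EWS-FLI1 (7 higher, 3 lower), beside 11.7% and 18.1% of all genes. For ΔIDR1b against no ARID1A they were 11 (8 higher, 3 lower) and 18 (12 higher, 6 lower), beside 33.3% and 35.9%. For ΔIDR1b against WT they were 11 (6 higher, 5 lower) and 11 (3 higher, 8 lower), beside 24.5% and 18.6%.

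Both genes tested on the list of thrombin receptors and their relatives differed between ARID1A states, where 11.7% to 35.9% of all genes were called. F2R, the main thrombin receptor PAR1, read 31.1 and 28.2 CPM with the empty vector and no ARID1A, 33.7 and 30.3 CPM in WT and 53.1 and 51.5 CPM in ΔIDR1b. Its ΔIDR1b difference from WT was 0.71 under the empty vector (SE 0.13, adjusted p = 1.26e-04) and 0.68 with EWS-FLI1 (SE 0.13, adjusted p = 2.88e-04). F2RL1, the related receptor PAR2, rose in all 4 contrasts against no ARID1A, by 0.45 to 0.76.

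Anticoagulant and fibrinolysis genes moved in both directions. SERPINA10, the protein Z-dependent protease inhibitor, read 0.511 and 0.864 CPM with EWS-FLI1 and no ARID1A, 1.43 and 1.74 CPM in WT and 4.11 and 3.68 CPM in ΔIDR1b. It was higher in ΔIDR1b than in WT by 1.29 (SE 0.40, adjusted p = 0.0226), and higher than with no ARID1A by 2.49 (adjusted p = 6.38e-05), or 1.16 under the empty vector (adjusted p = 0.0239). ANXA3, another annexin, was higher with EWS-FLI1 in WT than with no ARID1A by 1.18 (adjusted p = 0.00270), and in ΔIDR1b by 1.07 (adjusted p = 0.00268). LRP1, a receptor that clears proteases bound to their inhibitors, had 221 and 270 CPM in WT and 347 and 361 CPM in ΔIDR1b under the empty vector, a difference of 0.53 (SE 0.11, adjusted p = 8.59e-04). Against no ARID1A it was higher in ΔIDR1b by 0.49 and, with EWS-FLI1, by 0.55.

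Annexin A2 (ANXA2) and its partner S100A10, which together hold plasminogen at the cell surface, were lower in ΔIDR1b than in WT. ANXA2 fell by 0.40 with the empty vector (SE 0.10, adjusted p = 0.00352) and by 0.34 with EWS-FLI1 (SE 0.10, adjusted p = 0.0161), and it was lower than with no ARID1A by -0.29 with EWS-FLI1. S100A10 fell by 0.54 (SE 0.13, adjusted p = 0.00177) and 0.44 (SE 0.13, adjusted p = 0.0141). Against no ARID1A, S100A10 differed by -0.72 and -0.93 in ΔIDR1b, and by -0.50 in WT with EWS-FLI1. ENO1, a glycolytic enzyme that also binds plasminogen, was lower in ΔIDR1b than in WT by -0.39 and, with EWS-FLI1, by -0.28 (adjusted p = 0.00292 and 0.0381). PLAUR, the urokinase receptor, was higher in WT with EWS-FLI1 than with no ARID1A by 0.51 (adjusted p = 0.0301) and lower in ΔIDR1b than in WT by -0.51 (adjusted p = 0.0266). SERPINB6, an intracellular protease inhibitor, was lower in WT with EWS-FLI1 than with no ARID1A by -0.37 (adjusted p = 0.0268).

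All 8 genes of protein processing were tested, and their calls were also mixed. In ΔIDR1b against no ARID1A, 3 were higher and 2 lower under the empty vector, where 33.3% of all genes tested were called. With EWS-FLI1, 4 were higher and 3 lower, where 35.9% of all genes were called. Higher in both were GGCX, the vitamin K-dependent carboxylase (0.50 and 0.60), VKORC1L1, a vitamin K reductase (0.58 and 0.49), and FURIN, a proprotein convertase (0.43 and 0.46). Lower in both were P4HB, protein disulfide isomerase (-0.60 and -0.46), and ADAMTS13, the protease that trims von Willebrand factor (-0.36 and -0.63). With EWS-FLI1, VKORC1, the warfarin target, was lower by -0.65. ADAMTS13 also fell in WT against no ARID1A, by 0.78 with the empty vector (SE 0.12, adjusted p = 4.28e-05) and by 0.94 with EWS-FLI1 (SE 0.12, adjusted p = 1.17e-06).

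LMAN1 and MCFD2, which form the cargo receptor for clotting factors V and VIII, were higher in WT than with no ARID1A under the empty vector, by 0.46 and 0.32 (adjusted p = 0.00458 and 0.0344). VKORC1L1 was higher there too, by 0.39. With EWS-FLI1, MCFD2 was higher in WT by 0.37 and FURIN by 0.34. In ΔIDR1b against WT, LMAN1 was lower by -0.47 and, with EWS-FLI1, by -0.42, and P4HB by -0.46 and -0.40. VKORC1 was lower by -0.48 with EWS-FLI1. GGCX, ADAMTS13 and FURIN were higher in ΔIDR1b than in WT under the empty vector, by 0.51, 0.42 and 0.34.

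Among the 6 genes of phosphatidylserine exposure, ATP11A, a flippase that moves this lipid to the inner leaflet, was higher in ΔIDR1b. Under the empty vector it read 49.2 and 58.5 CPM with no ARID1A, 54.8 and 58.6 CPM in WT and 82.7 and 96.1 CPM in ΔIDR1b. Its difference from WT was 0.66 (SE 0.13, adjusted p = 2.15e-04) and 0.55 with EWS-FLI1 (SE 0.13, adjusted p = 0.00208), and that from no ARID1A 0.73 and 0.89. XKR8, a scramblase that exposes the lipid, was lower in ΔIDR1b with EWS-FLI1, by -0.45 against no ARID1A and by -0.46 against WT (adjusted p = 0.017 and 0.027).

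Neighbouring genes of THBD were looked at after its values were known. Within 500 kb lie 33 other genes, of which 20 had no count in any library and 6 were tested. None of the 6 was called in any state or in the average, where they differed by -0.17 to 0.43. With 0.0442%, 0.221%, 0.172% and 0.466% of all genes called in these contrasts, 0 of 6 lies at the background. SSTR4, 6.4 kb away, had no count, and CD93, an endothelial gene 29.7 kb away, had 2 counts in all 12 libraries.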

How the data were processed

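Counts per gene name were deposited for 12 polyA RNA libraries. Per the file headers, the authors counted read pairs over exons of GENCODE release 41 (GRCh38 patch 13) with featureCounts 2.0.1, with both ends aligned, no strand option, and without multi-mapping or multi-gene fragments. The submitters' processing notes name STAR, SAMtools, featureCounts and edgeR, and the versions of the others are not given in the sources used here. The counts carry no normalization.

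Genes were kept by filterByExpr (minimum count 10, total 15), which left 20377 genes with 99.79 to 99.87% of each library. One quasi-likelihood model with TMM factors was fitted to all libraries (edgeR 4.0.16, limma 3.58.1, R 4.3.3), 13 contrasts were tested 2-sided, and a call means an adjusted p (Benjamini-Hochberg, over all genes tested) below 0.05. The SE is the size of the log2 fold change divided by the square root of F. THBD was left out of the counts of calls with EWS-FLI1. Common biological variation was 10.1%. In simulated data for EWS-FLI1 in WT (19482 genes, 200 changed) 84% of genes changed 2-fold and 52% of those changed 1.5-fold were recovered, with 4 false calls.

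The 9 genes and all lists were chosen with earlier results of these data known. All 9 were named in every contrast. Listed genes were taken from those called, at 1 CPM or more and without overlap, up to 3 rises and 3 falls per list and contrast. Not every such call is described. The values of 2 listed genes are not reported here. The genes most like THBD were the 5 highest by Pearson r (prior count 2, mean of at least 1 CPM). Alternatives were DESeq2 1.42.0, other size factors, no filter, only the compared libraries, replicate blocks, a fold limit and leaving out each library. Equal repeat numbers deviated together among the 3 pairs of groups with EWS-FLI1 (r 0.137 to 0.381), so values with a block within each vector stand beside those results where the call changes. In every group the repeats differed by more than sampling noise (chi-square per degree of freedom 3.02 to 12.1).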

Additional observations from a re-analysis of the deposited data

How the results depend on the processing

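Leaving out either library of a group, other scalings and other tools called 0 of the 8 companions of THBD with EWS-FLI1 and 0 of the 9 genes in the interactions. Few of all genes were called in those contrasts, so 0 calls there says nothing about these genes as a group. Depth limits THBD most, which had 1 count in each library of the knockout cells with the empty vector. No scaling moved the median of all genes by more than 0.0648 on the log2 scale. Leaving out a library moved the log2 rise of THBD by more than its SE in 2 cases, to 3.36 with no ARID1A (without repeat 2 with EWS-FLI1) and to 4.23 in WT (without repeat 1 with the empty vector).

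Of the 9 genes, WT against no ARID1A with the empty vector called 2, and 1 with only the libraries compared, where THBD was filtered out, 1 with a fold limit of 1 log2 unit, and 1 to 3 with a library left out. ΔIDR1b against no ARID1A called 3 with the empty vector, 5 with only the libraries compared and 1 with the fold limit. ΔIDR1b against WT called 2 with the empty vector, 1 without a filter, 0 with the fold limit and 1 to 2 with a library left out. With EWS-FLI1, WT against no ARID1A called 3, 1 with the fold limit and 2 to 5 with a library left out. ΔIDR1b against no ARID1A called 4 with EWS-FLI1 and 1 with the fold limit. ΔIDR1b against WT called 1 with EWS-FLI1, 2 with RLE size factors, 3 with the replicate block within each vector, 0 with the fold limit and 0 to 2 with a library left out. The cause of these changes was not tested where none is named.

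Equal repeat numbers had r of 0.0889 to 0.184 in the 3 pairs of groups with the empty vector and -0.205 to -0.00463 in the 9 pairs across vectors. The replicate block over all 12 libraries changed no call of the 9 genes. The block within each vector changed, with the empty vector, only PROCR for ΔIDR1b against no ARID1A (log2 -0.31, adjusted p = 0.0478) and ANXA5 for WT against no ARID1A (0.24, adjusted p = 0.0436). A crossed replicate block, added after the data were seen, called 3 of the 9 genes in ΔIDR1b against WT with EWS-FLI1. Over all genes the block within each vector called 260 in place of 45 for EWS-FLI1 in WT, 177 in place of 35 in ΔIDR1b, 532 in place of 95 in the average, 3606 in place of 2381 for WT against no ARID1A with the empty vector, 16 in place of 5 for the WT interaction and 10 in place of 0 for the ΔIDR1b interaction with WT. The fold limit gave 24, 23, 29 and 521 for EWS-FLI1 in WT, in ΔIDR1b, in the average and for WT against no ARID1A under the empty vector, and 908 with EWS-FLI1. For ΔIDR1b against no ARID1A it gave 2327 in place of 6778 under the empty vector and 2570 in place of 7321 with EWS-FLI1, and for ΔIDR1b against WT 1393 in place of 4995 and 1140 in place of 3785. Without a filter, EWS-FLI1 with no ARID1A called 16. The average over states has no fit on only the libraries compared, since it uses all of them. Leaving out 1 library gave 5 to 15 genes in place of 9 for EWS-FLI1 with no ARID1A, 24 to 230 in WT, 23 to 74 in ΔIDR1b, 65 to 316 in the average, 802 to 3550 for WT against no ARID1A with the empty vector and 1828 to 3795 in place of 3684 with EWS-FLI1. Repeat 1 of WT with EWS-FLI1 left out gave 48 in place of 5 for the WT interaction and 26 in place of 0 for the ΔIDR1b interaction with WT. Leaving out 1 library also gave 2754 to 6138 genes for ΔIDR1b against WT under the empty vector and 1886 to 4383 with EWS-FLI1. ΔIDR1b against no ARID1A gave 4484 to 7781 under the empty vector and 5038 to 8286 with EWS-FLI1.

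Of 2447 fold changes of the 9 genes under alternatives 104 had the other sign, all of them in differences that were called neither before nor after (adjusted p of 0.345 or more). With a library left out, the log2 ranges that crossed 0 follow. For EWS-FLI1 with no ARID1A they were -0.17 to 0.17 (PLAT), -0.15 to 0.16 (SERPINE2), -0.089 to 0.045 (ANXA5), -0.41 to 0.29 (F3), -0.18 to 0.32 (TFPI2), -0.23 to 0.14 (PLAU). For EWS-FLI1 in WT they were -0.11 to 0.15 (PLAT), -0.26 to 0.039 (TFPI2), -0.10 to 0.56 (PLAU), -0.0062 to 0.15 (SERPINE2), -0.39 to 0.0090 (TFPI), -0.22 to 0.020 (ANXA5). For EWS-FLI1 in ΔIDR1b they were -0.069 to 0.082 (TFPI2), -0.23 to 0.039 (PROCR), -0.072 to 1.00 (F3), -0.12 to 0.035 (ANXA5). For the EWS-FLI1 average they were -0.061 to 0.052 (PLAT), -0.091 to 0.075 (TFPI2). For WT against no ARID1A (empty vector) they were -0.0016 to 0.70 (F3), -0.23 to 0.13 (PROCR), -0.073 to 0.60 (PLAU). For ΔIDR1b against no ARID1A (empty vector) they were -0.13 to 0.95 (F3). For ΔIDR1b against WT (empty vector) they were -0.48 to 0.40 (THBD), -0.44 to 0.64 (F3), -0.042 to 0.22 (PLAT). For WT against no ARID1A (EWS-FLI1) they were -0.10 to 0.14 (PROCR). For ΔIDR1b against WT (EWS-FLI1) they were -0.11 to 0.048 (SERPINE2), -0.12 to 0.30 (PLAU). For the WT interaction they were -0.21 to 0.19 (TFPI), -0.16 to 0.18 (PLAT), -0.12 to 0.24 (PROCR), -0.053 to 0.65 (F3), -0.42 to 0.075 (TFPI2), -0.084 to 0.23 (SERPINE2), -0.92 to 0.36 (THBD), -0.064 to 0.59 (PLAU), -0.20 to 0.043 (ANXA5). For the ΔIDR1b interaction with no ARID1A they were -0.094 to 0.26 (PROCR), -0.18 to 0.078 (TFPI), -0.31 to 0.19 (TFPI2), -0.20 to 0.14 (PLAT), -0.091 to 0.058 (ANXA5). For the ΔIDR1b interaction with WT they were -0.11 to 0.16 (PROCR), -0.31 to 0.76 (F3), -0.18 to 0.073 (PLAT), -0.25 to 0.15 (TFPI), -0.031 to 0.27 (TFPI2), -0.059 to 0.18 (ANXA5). With upper-quartile factors, sign changes gave 0.0039 (PLAT, EWS-FLI1 with no ARID1A), 0.00037 (PLAT, the EWS-FLI1 average), -0.046 (PROCR, WT against no ARID1A (EWS-FLI1)), 0.0061 (SERPINE2, ΔIDR1b against WT (EWS-FLI1)), -0.0051 (PROCR, the ΔIDR1b interaction with WT). With only the libraries compared in the fit, sign changes gave 0.0016 (PLAT, EWS-FLI1 with no ARID1A). With replicate block within each vector, sign changes gave -0.043 (SERPINE2, EWS-FLI1 with no ARID1A), -0.050 (PLAT, EWS-FLI1 in WT), -0.00079 (TFPI2, EWS-FLI1 in ΔIDR1b), -0.0019 (TFPI, the WT interaction). Without a filter on low counts, the sign change gave -0.0014 (TFPI2, EWS-FLI1 in ΔIDR1b).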
